A study of Sus scrofa with 22 samples.

Results

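The solute carriers described here are the membrane proteins that bring glucose, amino acids, short peptides, creatine, vitamins, inositol and lactate into or out of cells. Their genes were taken by symbol alone, as all genes of the SLC1, SLC2, SLC3, SLC5, SLC6, SLC7, SLC15, SLC16, SLC36, SLC38, SLC43 and SLC45 families that had an entry in at least 1 of the count tables. There were 55 such genes among the 12401 genes of the tables, out of 106 genes of these families in the annotation of the pig genome. The other 51 were not analysed here. Of the 55 carriers, 43 were listed for all 3 cell types, 50 for luminal epithelium (LE), 47 for glandular epithelium (GE) and 46 for the libraries labelled stroma (S). The families with most listed members were SLC7 (9 of 13), SLC6 (7 of 18), SLC16 (7 of 14), SLC2 (6 of 13) and SLC38 (6 of 11).

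RNA-seq was done on cells cut out of frozen endometrium by laser capture microdissection. The animals were 8 prepuberal crossbred gilts (German Landrace x Piétrain) in which ovulation was synchronised with PMSG and hCG, and tissue was taken on Day 12. The pregnant gilts (01, 03, 05 and 14) had been inseminated with semen, and the cyclic control gilts (02, 04, 06 and 13) with the supernatant of centrifuged semen of the same boar. Each gilt gave 1 LE and 1 GE library, and 3 gilts of each state gave an S library (controls 02, 04 and 13, pregnant 01, 05 and 14), which makes 22 libraries. The design asks how the transcripts of these carriers differed between pregnant and cyclic gilts in each cell type, and between the cell types.

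As background, the pig conceptus elongates on about this day while it floats free in the uterine lumen and is fed by what the endometrium secretes and transports, the histotroph. Carriers of the SLC5 and SLC6 families use the sodium gradient, SLC15 and SLC36 carriers use protons, and SLC2 carriers let hexoses pass down their gradient. Many SLC7 carriers exchange amino acids and need a heavy chain, SLC3A1 or SLC3A2, to reach the membrane, and SLC16 carriers of lactate need the partner proteins basigin or embigin. A transcript level says nothing about the membrane, apical or basal, that the protein would sit in.

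SLC5A1 (gene ID 397113), the sodium-glucose cotransporter SGLT1, and SLC5A4 (gene ID 397376), its close relative SGLT3, are neighbours in the genome. In the build Sscrofa11.1, SLC5A1 lies on the plus strand at chr14:48566400-48704145 and SLC5A4 on the minus strand at chr14:48708047-48741440. Their ends are 3901 bases apart with no annotated gene between them, and no 50-base window of exon sequence is shared by both. The 250 bases before the annotated starts of SLC5A1 and of 2 carriers that were lower in pregnant gilts, SLC6A9 (chr6:167266943-167267192, plus strand) and SLC6A15 (chr5:97092947-97093196, plus strand), are given here. These genes had the largest log2 fold changes among the carriers whose call for pregnancy was kept when any 1 gilt was left out, SLC5A1 and SLC6A9 in LE and SLC6A9 and SLC6A15 in libraries labelled S. The window of SLC5A1 spans chr14:48566150-48566399. They were read from the RefSeq genome, 5′ to 3′, and capitals mark GC boxes (GGGCGG, on either strand).
SLC5A1: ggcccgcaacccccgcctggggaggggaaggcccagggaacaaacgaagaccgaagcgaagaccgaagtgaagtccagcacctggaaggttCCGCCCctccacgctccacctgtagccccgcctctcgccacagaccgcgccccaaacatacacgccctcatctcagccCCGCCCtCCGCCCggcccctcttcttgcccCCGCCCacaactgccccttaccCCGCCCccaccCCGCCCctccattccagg
SLC6A9: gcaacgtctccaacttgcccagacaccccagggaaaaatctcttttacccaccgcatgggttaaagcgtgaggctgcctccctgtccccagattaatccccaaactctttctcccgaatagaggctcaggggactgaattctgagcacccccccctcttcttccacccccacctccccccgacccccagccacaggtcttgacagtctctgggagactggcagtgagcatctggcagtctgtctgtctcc
SLC6A15: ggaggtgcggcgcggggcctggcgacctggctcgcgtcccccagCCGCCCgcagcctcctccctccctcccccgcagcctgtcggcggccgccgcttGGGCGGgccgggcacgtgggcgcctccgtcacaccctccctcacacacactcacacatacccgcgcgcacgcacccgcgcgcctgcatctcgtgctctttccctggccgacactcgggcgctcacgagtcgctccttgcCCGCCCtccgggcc

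The window of SLC5A1 had 6 GC boxes and 69.6% G and C, that of SLC6A15 had 3 and 76.4%, and that of SLC6A9 had none and 58.0%. A GC box stood in 49.1% of the windows of the 55 carriers and in 55.6% of the 12398 windows of listed genes. The AP-1 letters TGANTCA were found in 7.27% of the carriers' windows and in 4.12% of all windows, and the ATF4 letters TGATGNAA in 1.82% (SLC7A11, the cystine carrier) and 1.98%. These matches are descriptions of 1 annotated start per gene. SLC6A9 has 9 annotated transcript starts, and SLC5A1 and SLC6A15 have 2 each. The annotated start of SLC5A1 lies 61833 bases of genome before its first coding base, so its window is far from the coding sequence.

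The libraries held 893912 (pregnant LE of gilt 01) to 4020796 counts on listed genes, and 3 counts corresponded to 0.746 to 3.36 CPM, the count scaled to the effective size of its library. The libraries labelled S did not look like stroma by their markers. Summed CPM of 8 epithelial markers such as CDH1 and KRT8 was 1168 to 4078 in S, against 2842 to 4192 in LE and 776 to 3172 in GE. Summed CPM of 8 fibroblast and matrix markers such as COL3A1 was 4755 to 12099.5 in 5 of the 6 S libraries and 62199.5 in the pregnant S library of gilt 01, against 7585 to 20000.5 in LE and 4302 to 46948 in GE. They are called libraries labelled S for this reason, and what cells they hold cannot be told from these data. The LE and GE libraries held matrix transcripts too. In control gilts the fibroblast and matrix sum was 11439 to 16966 CPM in LE, against 4755 to 8510 CPM in S. LE and GE are thus also labels here, and not pure epithelium. Listed smooth muscle markers summed to 8061 CPM in the control GE library of gilt 02 and to 4969 in the pregnant LE library of gilt 01, against 13.8 to 2045 in the other libraries. The gland marker FOXA2 was not listed in LE and stood at 11.4 to 133 CPM in GE and S. Blood endothelial markers summed to 71.8 to 2121 CPM, and the 4 or 5 listed leukocyte markers of 8 to 55.0 to 208 CPM. Of 10 markers of the conceptus trophoblast only PAG1 was listed, at 4.69 to 35.4 CPM and in control as well as pregnant gilts, and of 3 red blood cell markers 1 was listed, at 14.6 to 355 CPM. In such bulk samples fewer cells of a type and less RNA per cell cannot be told apart.

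In LE of pregnant gilts, SLC5A1, SLC5A4, SLC5A6, SLC15A1 and SLC7A6 rose and SLC6A9, SLC6A15, SLC6A8, SLC2A12, SLC45A2 and SLC45A4 fell. Sodium-coupled carriers were on both sides, SLC5 members among the former and SLC6 members among the latter. Of the 50 carriers listed there, 11 were called (edgeR quasi-likelihood test, FDR below 0.01), which is 22%, with 5 higher and 6 lower in pregnant gilts. Among all 11415 genes of LE, 10.0% were called. The level of the filter for listed genes is not given. SLC5A4, SLC15A1 and SLC45A2 had few counts in 1 state and may have been listed through the other state alone. Their calls would then not be independent of the filter. Pregnant and control libraries did not overlap for 32.0% of the carriers (10 higher and 6 lower in pregnant gilts), against 26.7% of all genes. The median log2 fold change of the carriers was −0.02 and that of all genes 0.01. By the same edgeR test, 21 of the 50 carriers and 35.6% of all genes in LE had an unadjusted p below 0.05. By family, 3 of 4 SLC5 carriers were called higher. Of 14 SLC1, SLC6 and SLC38 carriers, 3 were called lower and none higher. Of these 14, SLC1A5, SLC6A6 and SLC38A2 had all pregnant libraries above all controls but were not called. Called higher were 1 of 12 SLC3, SLC7 and SLC43 carriers and 1 of 6 SLC15 and SLC36 carriers (3 of the 6 had positive and 3 negative log2 fold changes). None of the 6 SLC16 carriers passed the test (1 at an unadjusted p below 0.05). Of the 8 epithelial markers, KRT7, KRT8 and KRT19 fell and CDH1, ELF3 and CLDN4 rose in LE of pregnant gilts. None of the 8 fibroblast and matrix markers was called by edgeR, and 2 were lower at an unadjusted p below 0.05. Of the 6 blood endothelial markers 5 had positive log2 fold changes (median 0.55, 3 higher at an unadjusted p below 0.05, none called), and of the 3 listed smooth muscle markers 2 did (median 3.15, 2 higher at that p, none called). Of the 4 listed leukocyte markers 1 was higher and 1 lower at that p, with none called. The part of these markers in the carriers' differences was not tested.

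**Figure D1:**
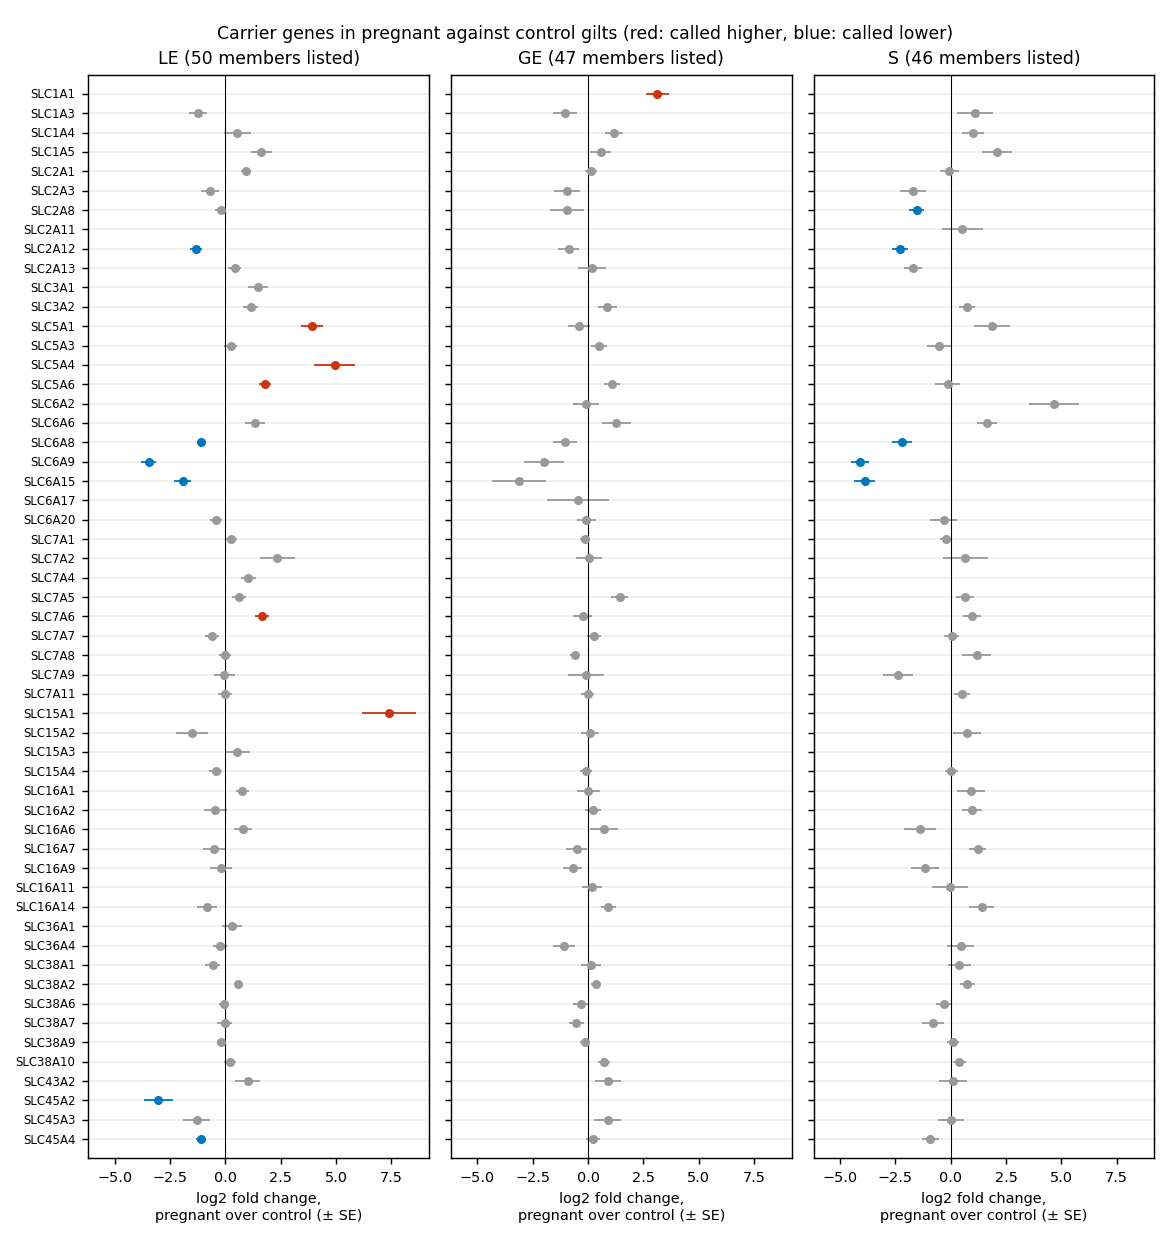
Log2 fold change of each listed carrier, pregnant over control gilts, in LE, GE and libraries labelled S (points, with standard errors as bars). Red points were called higher and blue points called lower, and a gene with no point was not listed for that cell type. LE has 5 red and 6 blue points, GE 1 red point and S 5 blue points.

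SLC5A1 had 32.5, 82.8, 131 and 40.3 CPM in the control LE libraries of gilts 02, 04, 06 and 13, and 941, 1662, 1170 and 569 CPM in the pregnant LE libraries of gilts 01, 03, 05 and 14. All pregnant libraries stood far above all control libraries. The means were 71.7 ± 45.4 and 1086 ± 457 CPM (SD, n = 4 each), a log2 fold change of 3.92 (SE 0.50, FDR 0.000568). The call was kept in all 8 fits that left out 1 gilt, with log2 fold changes of 3.64 to 4.40. Per kilobase of exons SLC5A1 had the highest mean of the 50 carriers in pregnant LE (274 CPM per kb), while in control LE its mean was 18.1 and those of SLC7A9, SLC16A6 and SLC2A13 were 127, 106 and 99.3 CPM per kb.

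SLC5A4 was listed in LE alone. It had 6.64, 3.21, 2.09 and 1.15 CPM in the control and 95.7, 212, 75.3 and 5.62 CPM in the pregnant LE libraries, in the same order of gilts. The pregnant gilt 14 stood apart from the other 3 and lay below the highest control library, so that the groups overlapped. The means were 3.27 ± 2.40 and 97.3 ± 85.9 CPM, a log2 fold change of 4.93 (SE 0.94, FDR 0.00479). The call was lost when gilt 02, 03, 04, 05, 06 or 13 was left out, with FDR values up to 0.0204 and log2 fold changes of 4.17 to 5.48.

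SLC15A1, the proton-coupled peptide carrier PEPT1 that takes up short peptides, was also listed in LE alone. Its control libraries had 0, 0.802, 0 and 1.15 CPM, which was 8 counts in all, and its pregnant libraries had 127, 240, 47.8 and 5.0 CPM, which was 745 counts. The groups did not overlap, but gilt 14 was again far below the other 3 pregnant gilts. The log2 fold change was 7.40 (SE 1.23, FDR 0.00234), and its size rests on the few counts of the controls. With so few control counts, the listing of SLC15A1 probably rested on the pregnant libraries too. The call was lost without gilt 02, 04 or 06, with FDR values up to 0.0114.

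SLC5A6, the sodium-dependent carrier of biotin and pantothenate, had 279, 188, 133 and 178 CPM in the control and 643, 984, 537 and 562 CPM in the pregnant LE libraries. The groups did not overlap. It rose from 195 ± 61.1 to 682 ± 207 CPM, a log2 fold change of 1.81 (SE 0.27, FDR 0.00141), and the call was kept in all 8 fits without 1 gilt. The fourth listed SLC5 carrier, the sodium and inositol cotransporter SLC5A3, had 159 ± 44.5 and 188 ± 80.1 CPM (log2 fold change 0.24, SE 0.30).

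**Figure D2:**
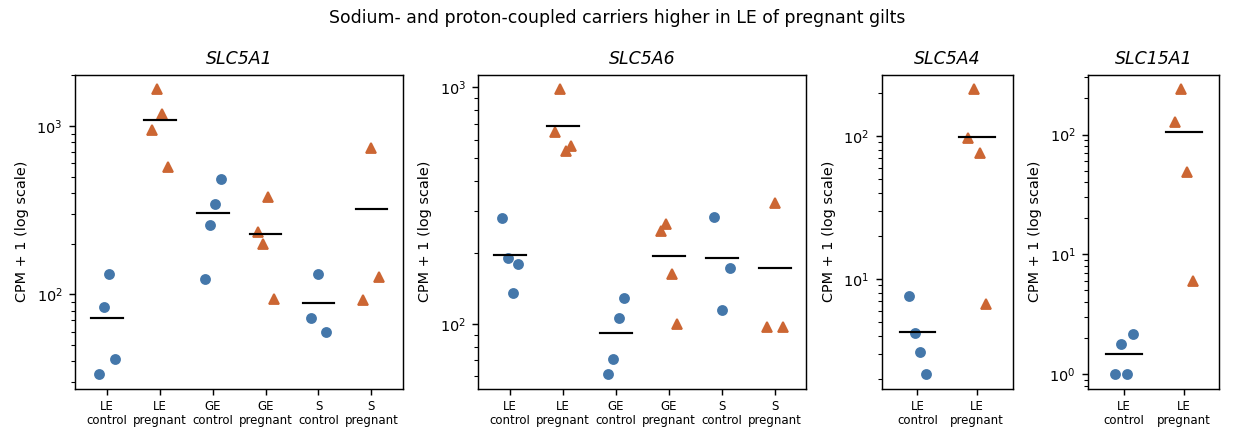
CPM + 1 on a log scale (vertical axis) of SLC5A1, SLC5A6, SLC5A4 and SLC15A1 in each library, by cell type and state (circles: control, triangles: pregnant, lines: means). SLC5A4 and SLC15A1 were listed for LE alone. In the LE panels 3 of the 4 pregnant libraries lie well above all controls for SLC5A4 and all 4 do so for SLC5A1 and SLC5A6.

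SLC7A6, an exchanger of cationic and neutral amino acids that pairs with SLC3A2, had 21.0, 10.2, 8.35 and 15 CPM in control and 42.0, 44.1, 55.3 and 30.0 CPM in pregnant LE, with no overlap. Its log2 fold change was 1.66 (SE 0.31, FDR 0.00481). The call was lost without gilt 03, 04, 05, 06 or 13 (FDR up to 0.0197). Of its exon windows 22% also belong to SLC7A6OS on the other strand, and the use of strand in counting is not stated. SLC7A6OS had a log2 fold change of −0.18 (SE 0.18, FDR 0.528), and the part of the overlap in the counts of SLC7A6 was not tested. The heavy chain SLC3A2 had 36.1 ± 10.4 CPM in control and 81.2 ± 41.0 CPM in pregnant LE, with a log2 fold change of 1.14 (SE 0.35, FDR 0.0425) that did not pass the test.

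SLC6A9, the glycine carrier GLYT1, showed the smallest p value of all carriers in LE. It had 114, 95.7, 79.7 and 72.7 CPM in the control libraries of gilts 02, 04, 06 and 13 and 4.67, 4.15, 8.77 and 12.5 CPM in the pregnant libraries of gilts 01, 03, 05 and 14. The groups lay far apart. It fell from 90.5 ± 18.4 to 7.52 ± 3.91 CPM, a log2 fold change of −3.47 (SE 0.32, FDR 0.000116), and the call was kept in all 8 fits without 1 gilt (−3.82 to −3.26).

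SLC6A15, a sodium-coupled carrier of branched-chain amino acids and proline, had 89.3, 282, 245 and 164 CPM in control and 23.3, 64.4, 43.2 and 68.7 CPM in pregnant LE. All pregnant libraries were below all controls, and the log2 fold change was −1.94 (SE 0.39, FDR 0.00668). SLC6A8, the creatine carrier, had 82.3, 96.5, 82.5 and 79.9 CPM in control and 31.5, 47.8, 33.9 and 46.5 CPM in pregnant LE, again with no overlap (log2 fold change −1.08, SE 0.19, FDR 0.00271). SLC2A12, the facilitative glucose carrier GLUT12, had 59.8, 94.1, 47.3 and 73.9 CPM in control and 26.9, 30.1, 33.0 and 19.7 CPM in pregnant LE (log2 fold change −1.33, SE 0.25, FDR 0.00493). These 3 falls were smaller than that of SLC6A9 and depended on more of the gilts. The call of SLC6A8 was lost without gilt 04 or 05 (FDR up to 0.0129), that of SLC6A15 without gilt 01, 03, 04, 05, 06 or 13 (up to 0.0254) and that of SLC2A12 without gilt 02, 03, 04, 05 or 13 (up to 0.0182). Of the exon windows of SLC2A12, 29.8% also belong to TBPL1 on the other strand, which had a log2 fold change of −0.23 (SE 0.23, FDR 0.520).

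In the SLC45 family, SLC45A2, known for its part in pigment cells, had 8.12, 8.28, 3.83 and 7.82 CPM in control and 0, 0, 0.605 and 1.87 CPM in pregnant LE, which was 98 against 8 counts (log2 fold change −3.04, SE 0.66, FDR 0.00926). SLC45A4 had 32.1, 28.1, 25.4 and 25.8 CPM in control and 15.2, 13.5, 10.3 and 13.1 CPM in pregnant LE (log2 fold change −1.12, SE 0.22, FDR 0.00505). Neither gene overlapped between the groups. The first call was kept without gilt 14 alone (FDR up to 0.0359 otherwise), and the second was lost without gilt 02, 03, 04, 05, 06 or 13 (up to 0.0219).

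**Figure D3:**
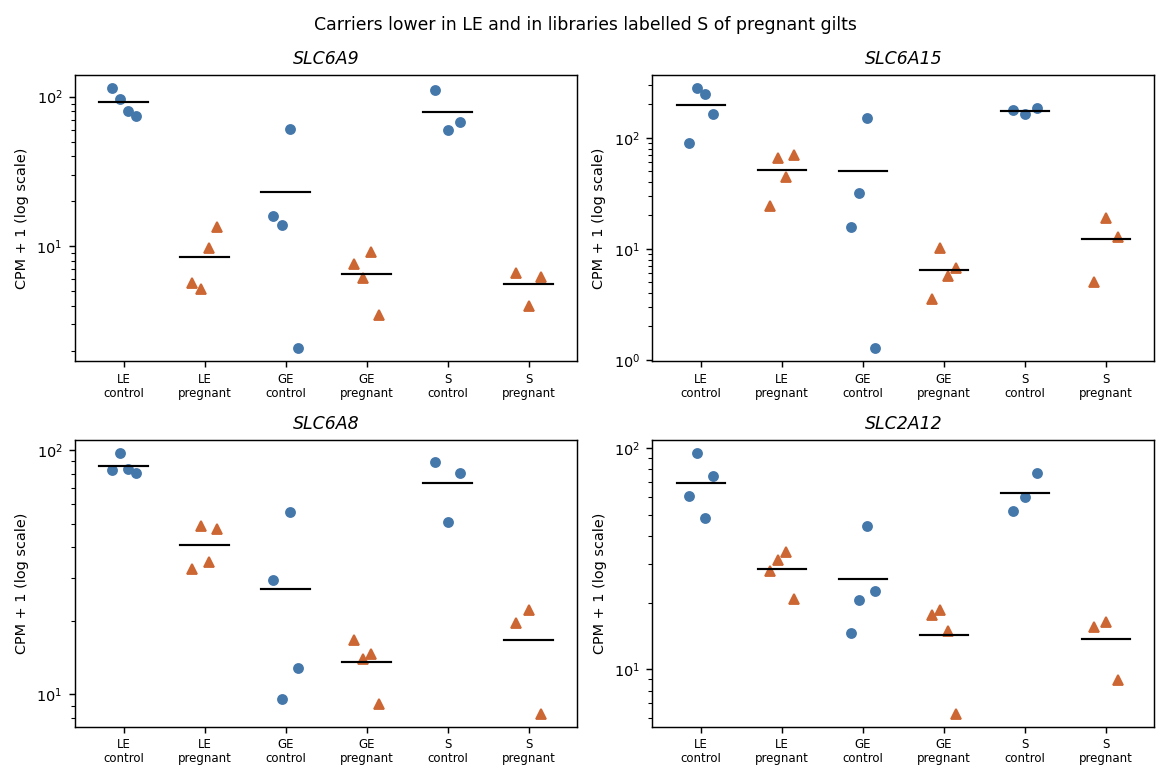
CPM + 1 on a log scale (vertical axis) of SLC6A9, SLC6A15, SLC6A8 and SLC2A12 in each library, by cell type and state (circles: control, triangles: pregnant, lines: means). In LE and in libraries labelled S the pregnant libraries lie below all controls for each of the 4 genes. In GE the control library of gilt 06 is the highest for each gene.

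The most widely used carriers of glucose, amino acids and lactate did not pass the FDR of 0.01 in LE. SLC2A1 (GLUT1) had 107, 82.8, 80.4 and 95.7 CPM in control and 184, 240, 134 and 132 CPM in pregnant LE. All pregnant libraries were above the controls, with a log2 fold change of 0.91 (SE 0.22) and an FDR of 0.0147 just above the threshold. This threshold was stricter than the unadjusted p below 0.0021 used in GE and S. In LE the edgeR test called 1146 genes at the former and 1447 at the latter. SLC2A1 would be called in LE at the latter. SLC2A3 (GLUT3) had 403 ± 97.5 and 246 ± 129 CPM (−0.71, SE 0.40, FDR 0.236). SLC1A5, a carrier of glutamine and other small neutral amino acids, had 12.4 ± 3.86 and 40.1 ± 30.0 CPM (1.62, SE 0.46, FDR 0.0297), and its groups did not overlap. The neutral amino acid exchanger SLC7A5 (LAT1) had 27.9 ± 9.86 and 43.4 ± 14.8 CPM (0.62, SE 0.33, FDR 0.215). The lactate carrier SLC16A1 (MCT1) had 17.2 ± 4.29 and 29.7 ± 10.2 CPM (0.77, SE 0.30, FDR 0.0933). At an FDR below 0.05, 17 of 50 carriers would pass in LE, 10 higher and 7 lower, and 2557 of all 11415 genes.

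Of the carriers listed in LE alone, those not yet named were low. SLC3A1, the heavy chain that pairs with SLC7A9, had 3.93 ± 1.24 and 11.2 ± 5.60 CPM in control and pregnant LE, SLC7A4 4.96 ± 1.89 and 10.6 ± 1.57, the lysosomal carriers SLC15A3 6.36 ± 1.46 and 10.5 ± 9.55 and SLC36A1 7.71 ± 1.24 and 10.6 ± 7.45 CPM. None of these 4 passed the test. For a gene not listed for a cell type no level can be given there.

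In GE, 1 of 47 listed carriers was called (unadjusted p below 0.0021), which is 2.13%, against 0.694% of all 11676 genes. This was SLC1A1, a sodium-coupled carrier of glutamate and cysteine that was listed in GE alone. The filter level is not known, and SLC1A1 may have been listed through the pregnant libraries alone. It had 4.12, 6.68, 1.11 and 4.59 CPM in the control libraries of gilts 02, 04, 06 and 13 and 41.9, 52.2, 28.4 and 19.1 CPM in the pregnant libraries of gilts 01, 03, 05 and 14. The groups did not overlap, and the mean rose from 4.12 ± 2.30 to 35.4 ± 14.6 CPM (log2 fold change 3.12, SE 0.52, edgeR FDR 0.138). The call was kept in all 8 fits without 1 gilt, but no carrier passed an FDR of 0.05 in GE, where 8 of 47 carriers and 8.09% of all genes had an unadjusted p below 0.05. DESeq2 called 2 carriers and 241 genes at the same unadjusted threshold as edgeR. Non-overlapping groups were seen for 8.51% of the carriers (3 higher and 1 lower in pregnant gilts), against 4.92% of all genes.

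SLC5A1 was well expressed in GE of both states, with 122, 257, 342 and 485 CPM in control and 233, 198, 380 and 92.3 CPM in pregnant gilts, and the groups overlapped (log2 fold change −0.42, SE 0.49, edgeR FDR 0.859). SLC7A5 had 14.6 ± 6.64 and 39.2 ± 13.6 CPM (1.42, SE 0.37, edgeR FDR 0.333), a difference that passed the threshold without gilt 02 and in none of the other fits without 1 gilt. The control GE library of gilt 06 was high in carriers that were more abundant in LE. It had 59.7 CPM of SLC6A9, 151 of SLC6A15, 117 of SLC2A8, 55.0 of SLC6A8 and 85.0 of SLC7A9, against at most 14.8, 30.5, 23.8, 28.4 and 23.9 CPM in the other 3 control GE libraries. The part of this library in the spread of GE was not tested. Without gilt 13, SLC6A15 passed the threshold in GE as lower in pregnant gilts. SLC6A17, a carrier of neutral amino acids into vesicles, was listed in GE alone. Its mean was 14.4 ± 27.2 CPM in control and 10.5 ± 7.90 CPM in pregnant gilts, with 55.2 CPM in the control library of gilt 02 and at most 1.89 CPM in the other controls. Among the general carriers of GE were SLC2A1 (85.6 ± 29.0 and 95 ± 18.6 CPM) and SLC3A2 (24.2 ± 7.78 and 44.1 ± 24.9 CPM).

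In the libraries labelled S, 5 of 46 listed carriers were called at the same p threshold, all lower in pregnant gilts, which is 10.9% against 1.47% of all 11532 genes. Of the 170 genes called there, 121 were lower. Groups did not overlap for 32.6% of the carriers (6 higher and 9 lower in pregnant gilts) and for 17.6% of all genes. An unadjusted p below 0.05 in the edgeR test was seen for 15 of the 46 carriers and 12.5% of all genes in S. Of the 5 called carriers, SLC6A9, SLC6A15, SLC2A12 and SLC6A8 had also fallen in LE. In GE their log2 fold changes were negative too (−1.99, −3.14, −0.88 and −1.05), with overlapping groups and no call. In control S the mean CPM of each of the 5 lay nearer to control LE than to control GE. In pregnant S it lay nearer to pregnant GE than to pregnant LE. For SLC2A12 the control means were 61.9 in S, 68.8 in LE and 24.5 in GE, and the pregnant means 12.6, 27.4 and 13.3. For SLC6A8 they were 72.6, 85.3 and 26.0, and 15.7, 39.9 and 12.6. The part of a differing content of luminal epithelium in these falls was not tested. Of the 8 epithelial markers in S, 3 had positive and 5 negative log2 fold changes (median −0.35), 3 were lower and none higher at an unadjusted p below 0.05, and KRT7 was called lower (−3.14, SE 0.61, edgeR FDR 0.122). The 8 fibroblast and matrix markers all had positive log2 fold changes there, with a median of 1.55, none called by edgeR and 3 at an unadjusted p below 0.05. The 6 blood endothelial markers were all positive as well (median 1.24, 1 at that p), as were 2 of 3 smooth muscle markers (median 2.98, 2 at that p) and 3 of 4 leukocyte markers (median 0.71, 2 at that p), with none called. The part of these markers in the carriers' falls was not tested.

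SLC6A9 had 109, 59.0 and 66.6 CPM in the control S libraries of gilts 02, 04 and 13 and 5.66, 3.01 and 5.21 CPM in the pregnant S libraries of gilts 01, 05 and 14 (log2 fold change −4.10, SE 0.41, edgeR FDR 0.0296). SLC6A15 had 175, 162 and 184 CPM in control and 4.05, 17.7 and 11.6 CPM in pregnant S libraries (−3.90, SE 0.46, edgeR FDR 0.0343). SLC2A12 had 50.8, 58.7 and 76.1 CPM against 14.6, 15.4 and 7.97 CPM (−2.30, SE 0.35, edgeR FDR 0.0739). None of the 3 overlapped between groups, and all 3 calls were kept in the 6 fits without 1 gilt, including that without gilt 01, whose S library was high in matrix transcripts.

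SLC6A8 had 88.6, 49.7 and 79.4 CPM in control and 18.6, 21.1 and 7.35 CPM in pregnant S libraries (−2.22, SE 0.45, edgeR FDR 0.128), and SLC2A8, the mostly intracellular hexose carrier GLUT8, had 120, 95.3 and 106 CPM against 27.5, 53.2 and 28.2 CPM (−1.55, SE 0.32, edgeR FDR 0.132). Both were without overlap but less stable. The call of SLC6A8 was lost without gilt 01, 02, 05 or 13 (p up to 0.00686) and that of SLC2A8 without gilt 01, 02, 04, 13 or 14 (p up to 0.00813). SLC5A1 differed little in 2 of the 3 pregnant S libraries, with 91.4 and 126 CPM in gilts 01 and 14 against 71.7, 131 and 58.9 CPM in the controls, and stood at 739 CPM in gilt 05. SLC6A2, the noradrenaline carrier, which was listed in GE and S, had 0, 1.46 and 1.10 CPM in control and 25.9, 3.35 and 42.3 CPM in pregnant S libraries (4.67, SE 1.13, edgeR FDR 0.173). SLC2A11 was listed in S alone and was low (4.47 ± 3.26 and 6.14 ± 5.76 CPM, n = 3 each).

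Of the general carriers, none passed in GE or S. In S, SLC2A1 had 90.1 ± 25.7 and 86.1 ± 43.5 CPM in control and pregnant gilts, SLC2A3 410 ± 106 and 124 ± 105, SLC3A2 26.2 ± 6.83 and 43.8 ± 17.9, SLC7A5 26.7 ± 12.7 and 41.8 ± 6.59, SLC1A5 8.62 ± 2.49 and 37.7 ± 33.8 and SLC16A1 11.4 ± 7.55 and 21.8 ± 14.3 CPM. In GE, SLC2A3 had 104 ± 55.2 and 54.3 ± 27.7, SLC1A5 19.9 ± 9.68 and 29.4 ± 18.6 and SLC16A1 18.0 ± 10.8 and 18.2 ± 9.35 CPM. In S the groups did not overlap for SLC2A3 (lower in pregnant gilts, edgeR FDR 0.306) and SLC1A5 (higher, edgeR FDR 0.286), and in GE for none of these 3 genes.

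The cell types differed in which carriers stood highest per kilobase of exons (mean ± SD over all libraries of a cell type). In LE these were SLC5A1 with 146 ± 157 CPM per kb, SLC16A6, a monocarboxylate carrier, with 145 ± 71.3, and SLC7A9, which takes up cystine and cationic amino acids, with 126 ± 62.3. SLC5A1 led there through the pregnant libraries alone, and in control LE the order was SLC7A9, SLC16A6 and SLC2A13. In GE they were the neutral amino acid and glutamine carriers SLC38A1 with 243 ± 105 and SLC38A2 with 94.3 ± 20.5, followed by SLC5A1 with 66.6 ± 33.6, in this order in both states. In the libraries labelled S they were SLC38A1 with 230 ± 112, SLC38A2 with 106 ± 40.6 and the proton-coupled inositol carrier SLC2A13 with 86.9 ± 64.2 CPM per kb, an order that held in neither state. In control S the highest means were those of SLC38A1, SLC2A13 (133) and SLC16A6 (122), and in pregnant S those of SLC38A1 (260.2), SLC38A2 (133) and SLC5A1 (80.6 CPM per kb). The mean of SLC5A1 in pregnant S rests mainly on gilt 05, with 2207 counts against 113 and 412 in gilts 01 and 14. That library also had the highest epithelial marker sum of the S libraries (4078 CPM). The general carriers SLC2A1, SLC3A2, SLC1A5, SLC7A5 and SLC16A1 had 50.7, 28.8, 9.13, 8.42 and 5.67 CPM per kb in LE, and stood at ranks 10, 13, 20, 22 and 27 of the 50 carriers.

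In 1 fit of all 22 libraries over the 10643 genes listed for all cell types, 15 of 43 carriers were called between LE and GE (edgeR, FDR below 0.01, mean over both states), which is 34.9%, against 14.1% of all genes. Of these, 9 were higher in LE, among them 4 of the 5 SLC2 carriers, and 6 were higher in GE. The next values are on the common scale of this fit and differ slightly from those above. All 15 were also called with the gilt as a fixed replicate block and as a random replicate block, and without the control GE library of gilt 02 and the pregnant S library of gilt 01 the number was 15 as well.

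Higher in LE by the largest log2 differences were SLC7A9, SLC6A15, SLC2A8, SLC16A6 and SLC2A3. SLC7A9 had 226 ± 76.5 and 223 ± 153 CPM in control and pregnant LE against 34.4 ± 36.2 and 32.5 ± 24.9 CPM in GE (log2 difference 2.75, SE 0.54, FDR 0.00118). SLC6A15 had 198 ± 87.6 and 50.9 ± 21.1 against 50.3 ± 70.6 and 5.57 ± 2.86 CPM (2.57, SE 0.60, FDR 0.00427). SLC2A8 had 154 ± 32.7 and 133 ± 41.6 against 42.1 ± 52.3 and 22 ± 8.53 CPM (2.23, SE 0.40, FDR 0.00067). For SLC7A9 and SLC2A8 the control GE library of gilt 06 alone reached into the range of LE, and for SLC6A15 those of gilts 04 and 06 did so. SLC16A6 had 463 ± 276 and 810 ± 277 CPM against 102 ± 75.2 and 167 ± 106 (2.23, SE 0.46, FDR 0.00164), and SLC2A3 had 411 ± 99.9 and 251 ± 131 against 106 ± 56.2 and 54.8 ± 27.8 CPM (2.08, SE 0.41, FDR 0.00117). SLC2A13, SLC6A8, SLC5A6 and SLC2A12 followed with log2 differences of 1.79, 1.69, 1.47 and 1.26, and of these 9 genes the libraries of LE and GE were without overlap for SLC2A13 alone. The call of SLC6A15 was lost without gilt 02, 03, 04, 05 or 14 (FDR up to 0.0277) and that of SLC2A12 without gilt 04 or 13 (up to 0.0180). SLC6A9 missed the threshold (1.27, SE 0.46, FDR 0.0505) and passed it without gilt 06 (1.91, FDR 0.00300).

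Higher in GE was above all SLC15A2, the peptide carrier PEPT2, which has a higher affinity than PEPT1. It had 9.30 ± 2.63 and 3.17 ± 3.70 CPM in control and pregnant LE, at most 12.7 CPM in any LE library, and 93.6 ± 56.3 and 97.9 ± 23.1 CPM in GE, at least 44.9 CPM in any GE library (log2 difference −4.11, SE 0.49, FDR 2.67e-05). SLC7A2, a carrier of cationic amino acids such as arginine, had 4.41 ± 2.18 and 24.9 ± 26.9 against 108 ± 74.6 and 112 ± 48.4 CPM (−3.46, SE 0.66, FDR 0.00101). The taurine carrier SLC6A6 had 10.7 ± 3.49 and 29.0 ± 20.9 against 73.9 ± 58.7 and 179 ± 148 CPM (−2.75, SE 0.44, FDR 0.000255). SLC38A1 had 365 ± 54.5 and 246 ± 125 against 952 ± 517 and 1021 ± 393 CPM (−1.72, SE 0.33, FDR 0.00114), and the proline carrier SLC6A20 had 177 ± 35.2 and 131 ± 53.2 against 473 ± 252 and 447 ± 150 CPM (−1.59, SE 0.34, FDR 0.00221). The sixth was the monocarboxylate carrier SLC16A7 (−1.55, SE 0.35, FDR 0.00317). The calls of SLC15A2, SLC7A2 and SLC6A6 were kept in all 8 fits without 1 gilt. Those of SLC16A7 (without gilt 02, 03, 04 or 05), SLC6A20 (03, 04 or 13) and SLC38A1 (13) were not, with FDR values up to 0.0164, 0.0153 and 0.0101. SLC6A20 shares 16.2% of its exon windows with SACM1L and SLC38A1 15.7%, mostly with an uncharacterised gene on the other strand.

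**Figure D4:**
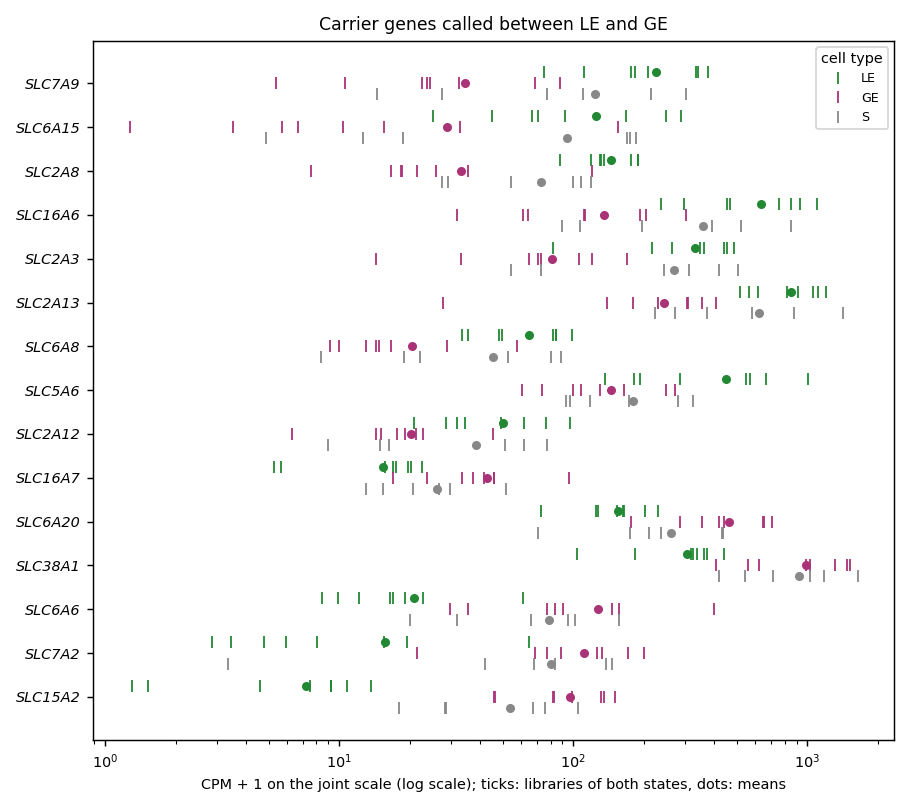
CPM + 1 on the common scale of all 22 libraries (log horizontal axis) of the 15 carriers called between LE and GE. Ticks are single libraries of both states and dots are means, in green for LE, purple for GE and grey for libraries labelled S. The upper 9 genes were higher in LE and the lower 6 in GE, and for SLC2A13 and SLC15A2 the ticks of LE and GE do not overlap.

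Between LE and libraries labelled S, SLC15A2 was called (log2 difference −3.22, SE 0.49, FDR 0.00169), 1 of 43 carriers or 2.33%, against 0.799% of all genes. The call was lost without gilt 04 or 05 (FDR up to 0.0314). With the gilt as a fixed replicate block SLC38A1 was called too (−1.42, FDR 0.00998), and with the gilt as a random replicate block SLC38A1 and SLC6A6 (−1.49, FDR 0.00758 and −2.06, FDR 0.00945). Over all alternatives their FDR lay between 0.000379 and 0.123 and between 0.000821 and 0.152. Between GE and libraries labelled S no carrier was called by edgeR, with or without the gilt as a block, or by DESeq2, and 9 carriers had an unadjusted p below 0.05. No gene of the whole table was called by edgeR there (0%), where 868 genes had an unadjusted p below 0.05 and DESeq2 called 3.

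Whether a carrier responded to pregnancy differently in the cell types was tested with the interaction of cell type and state in the same fit. No carrier and no other gene passed an FDR of 0.01 for any pair of cell types by edgeR (0% in each). At an unadjusted p below 0.05 there were 5 carriers and 1329 genes for LE and GE, 11 and 1149 for LE and S, and 9 and 644 for GE and S. DESeq2 called 1 carrier and 111 genes for LE and GE, none and 21 for LE and S, and none at all for GE and S. The carrier with the smallest p between LE and GE was SLC5A1. Its log2 fold change was 4.35 higher in LE than in GE (SE 0.90, FDR 0.0377). With the gilt as a fixed replicate block, which compares the LE and GE libraries of the same animal, the difference was 4.56 (FDR 0.00716), and with a random replicate block 4.48 (FDR 0.00382). The fixed block called 1 of 43 carriers and 0.395% of all genes. Over all alternatives the FDR of SLC5A1 lay between 0.000214 and 0.211. Of the 8 fits without 1 gilt, which had no block, 0 called it (FDR up to 0.162).

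Within each gilt the direction was plain, in the same libraries that entered these tests. In the 4 control gilts 02, 04, 06 and 13, SLC5A1 was lower in LE than in GE by log2 ratios of −1.86, −1.66, −1.40 and −3.58. In the 4 pregnant gilts 01, 03, 05 and 14 it was higher in LE by log2 ratios of 2.05, 3.05, 1.63 and 2.64. SLC7A6 had log2 ratios of LE to GE of −0.34, −0.83, −0.89 and 0.94 in the controls and of 1.10, 1.34, 2.34 and 1.72 in the pregnant gilts. Its difference in response was 1.90 (SE 0.52, FDR 0.105 in the edgeR fit and 0.0267 with the fixed replicate block), which did not fall below 0.01.

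**Figure D5:**
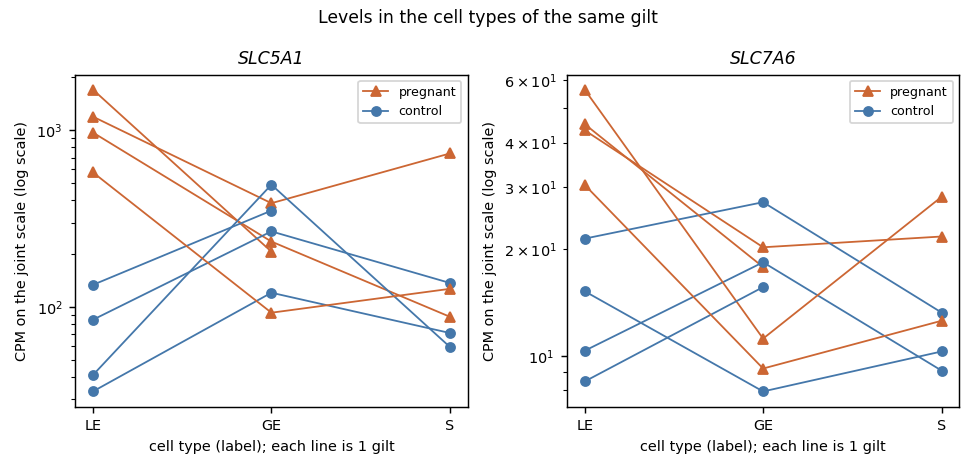
CPM on the common scale (log vertical axis) of SLC5A1 and SLC7A6 in the cell types of the same gilt (horizontal axis), with 1 line per gilt. Control gilts are blue circles and pregnant gilts orange triangles. For SLC5A1 all 4 blue lines go up from LE to GE and all 4 orange lines go down.

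Genes that work with the carriers were examined in 4 further lists, by the same tests and against the same background of 10.0% in LE. Of the 15 listed partners of carriers and genes of the sodium gradient, 3 rose in LE. EMB (embigin), the membrane partner of monocarboxylate carriers, rose from 23.5 ± 8.25 to 2329 ± 2424 CPM (log2 fold change 6.63, SE 0.98, FDR 0.00125). SGK1, a kinase that acts on sodium and nutrient transport, rose from 167 ± 33.4 to 840 ± 168 CPM (2.33, SE 0.22, FDR 0.000108). ATP1B3, a beta subunit of the sodium pump, rose too (2.41, SE 0.32, FDR 0.00069). In GE none of 16 was called by edgeR (2 at an unadjusted p below 0.05) and in S EMB rose (2.54, SE 0.41, edgeR FDR 0.082).

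Of the 18 listed genes of glycolysis and lactate, 4 rose in LE and none fell. HK2, the hexokinase that traps glucose, rose from 3.72 ± 2.11 to 44.2 ± 25.9 CPM (3.61, SE 0.48, FDR 0.000736), and LDHA (1.47, SE 0.27), GAPDH (1.07, SE 0.23) and ALDOA (0.95, SE 0.17) rose less. In S 1 of 20 was called, LDHB, from 1.96 ± 0.53 to 50.6 ± 49.3 CPM (4.67, SE 0.81, edgeR FDR 0.0995). In GE none of 20 was called by edgeR, while 8 were higher and 1 lower at an unadjusted p below 0.05. The median log2 fold changes of the list were 0.37, 0.48 and 0.42 in LE, GE and S.

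Of the 35 listed genes of amino acid sensing by mTORC1, 4 were called in LE, a share near the 10.0% of all genes. The median log2 fold change of this list in LE was −0.04. At an unadjusted p below 0.05 (edgeR), 5 were higher and 7 lower, where 35.6% of all genes passed. RHEB, the GTPase that activates mTORC1, rose (1.79, SE 0.30, FDR 0.00253). RRAGD, a Rag GTPase, fell (−2.49, SE 0.37, FDR 0.00122), as did the sestrins SESN2 (−1.40, SE 0.26, FDR 0.00376) and SESN3 (−0.94, SE 0.20, FDR 0.00803). RRAGD fell in S too (−3.39, SE 0.68, edgeR FDR 0.124), and none was called by edgeR in GE (2 at an unadjusted p below 0.05). Of the 23 listed genes of the ATF4 response to amino acid shortage, 5 rose and 1 fell in LE. ATF4 itself (1.13, SE 0.22), CEBPB (2.0, SE 0.26), NUPR1 (4.74, SE 0.72), CTH (4.21, SE 0.71) and the mitochondrial PCK2 (6.60, SE 0.84) rose. The serine synthesis enzyme PSAT1 fell from 785 ± 281 to 105 ± 37.0 CPM (−2.89, SE 0.35, FDR 0.000475). In S, NUPR1 rose (4.83, SE 0.88, edgeR FDR 0.108) and PSAT1 fell (−3.42, SE 0.38, edgeR FDR 0.0297), and in GE none of 22 was called by edgeR (5 at an unadjusted p below 0.05).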

How the data were processed

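Laser capture RNA-seq libraries (Ovation SoLo, total RNA) were available as 1 table of read counts per NCBI gene for each cell type. According to the methods of the study, the authors mapped reads with Hisat2 to Sscrofa11.1, removed PCR duplicates by their molecular identifiers, counted reads per gene and filtered genes by CPM. The deposited values are raw counts without normalization, checked as whole numbers. The counter, its use of strand and the filter level are not given in the sources used here. All gene IDs were matched to the NCBI annotation of Sscrofa11.1, and exon overlap was counted in windows of 50 bases. For pregnancy, 1 model per table was used (edgeR 4.0.16 under R 4.3.3, TMM scaling, estimateDisp, quasi-likelihood F test of pregnant against control over all listed genes). Carriers were called at FDR below 0.01 (Benjamini-Hochberg) in LE and unadjusted p below 0.0021 in GE and S, the thresholds of the study. In the study 0.0021 was the p value that corresponded to its FDR threshold in LE. Here the 2 thresholds were not equal. In LE the edgeR test called 1146 genes at FDR below 0.01 and 1447 at unadjusted p below 0.0021. The threshold in GE and S was therefore looser than that in LE. SE is the log2 fold change divided by the root of F. Cell types and responses were compared in 1 edgeR fit of 6 groups over 10643 shared genes (FDR below 0.01). By the labels a number stands for 1 animal, and deviations from group means correlated within gilts with medians of 0.259 (LE and GE), 0.314 (LE and S) and 0.472 (GE and S) against −0.076, −0.137 and −0.189 between gilts. Since no animal was in both states, the gilt entered as a block in the fits across cell types alone, fixed (edgeR) or random (voom and duplicateCorrelation, limma 3.58.1, correlation 0.268). Alternatives were RLE or library-size scaling, count filters, DESeq2 1.42.0, likelihood ratio tests, other thresholds, the pairs of cell types, the 6 gilts with an S library and leaving out each gilt. Leaving out the control GE library of gilt 02 and the pregnant S library of gilt 01 was added after seeing the data. The carriers, the other lists and the tests were chosen with earlier results of these data known. Genes named are those called for pregnancy, the 5 called most different in each direction between cell types, the 3 highest per kb, those listed in 1 table, those whose response differed, SLC5A1, SLC5A4 and SLC15A1, 6 general carriers and the called genes of the other lists. A test on simulated data changed 200 genes by 2 on the log2 scale, of which 149 were recovered in LE with 3 false calls (11415 genes), 141 in GE with 20 (11676), 114 in S with 19 (11532) and 178 between LE and GE with 2 (10643). 1 result of the list of carrier partners is not reported here.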

Additional observations from a re-analysis of the deposited data

Results flagged for a closer look

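For 14 carriers with values by library, 48 groups of 4 libraries were searched for a library far from the others, and 3 were found, where chance gives about 5% of groups. SLC2A8 stood at 117 CPM in the control GE library of gilt 06 against 6.48 to 23.8 CPM in the other control GE libraries. SLC6A8 stood at 96.5 CPM in the control LE library of gilt 04 against 79.9 to 82.5 CPM in the others, and SLC45A2 at 3.83 CPM in the control LE library of gilt 06 against 7.82 to 8.28 CPM.

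The response of SLC5A1 to pregnancy differed between LE and GE by 4.56 on the log2 scale in the edgeR fit that blocks on the animal (FDR 0.00716), and its level was higher in LE than in GE in 4 of 4 pregnant gilts and lower in 4 of 4 control gilts. Without the block the FDR of this difference was 0.0377, and of the 8 fits without 1 gilt 0 called it.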

How the results depend on the processing

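In LE the number of called carriers was 11, and 7 with at least 10 counts in every library (a filter that removes SLC15A1, SLC5A4, SLC6A9 and SLC45A2), 17 at an FDR below 0.05, and 3 to 13 without 1 gilt (3 without gilt 04, 4 without gilt 05, 5 without gilt 03, 06 or 13, 6 without gilt 02 and 13 without gilt 14). The genes called in LE over the whole table went from 1146 to 588 without gilt 04, 664 without gilt 05, 905, 627 and 678 without gilt 03, 06 and 13, 684 without gilt 02 and 1643 without gilt 14. In GE it was 1, and 0 with at least 10 counts and at an FDR below 0.05 or 0.01, 2 with DESeq2 or the likelihood ratio test (adding SLC7A5), and 1 to 2 without 1 gilt (2 without gilt 02 or 13). In S it was 5, and 3 with at least 10 counts, 9 with DESeq2 or the likelihood ratio test, 2 at an FDR below 0.05, 0 at an FDR below 0.01 and 3 to 8 without 1 gilt (8 without gilt 05 and 3 without gilt 01, 02 or 13), with 221, 173, 74 and 65 of all genes. For the paired analysis, between LE and S the number was 1, with 2 for the gilt as a fixed replicate block, 3 for a random replicate block, 0 with at least 10 counts or with the 6 gilts alone, 4 with DESeq2 or at an FDR below 0.05, 2 without the control GE library of gilt 02 and the pregnant S library of gilt 01, 2 for the pair of tables, and 0 to 1 without 1 gilt (0 without gilt 04 or 05). Between LE and GE it was 15 (11 to 16 without 1 gilt) and 15 with either replicate block. A different response in LE and GE was called for 0 carriers, and for 1 with the fixed replicate block, the random replicate block, DESeq2 or an FDR below 0.05. The block changed no other count. The median log2 fold change in LE was −0.02, and 0.17 with at least 10 counts and −0.10 to 0.19 without 1 gilt, and scaling by library size alone shifted the median of all genes in LE by −0.15. For 94 pairs of a carrier and a comparison, 1451 values under an alternative were examined. Of these, 1370 kept their direction and side of the threshold, 69 lost and 12 gained a call, and none changed direction while called. The 94 pairs are not all pairs, and more calls were gained over all carriers. Between LE and S, for example, SLC38A1 was called in 4 and SLC6A6 in 3 of 9 other settings. Over all genes DESeq2 called 2182 in LE (edgeR 1146), 241 in GE (81), 512 in S (170) and 418 between LE and S (85), the likelihood ratio test 2072, 185 and 463 in LE, GE and S, and the random replicate block 2528 between LE and GE (1505) and 188 between LE and S. Depth limits the carriers near 3 counts, among them SLC15A1 and SLC45A2.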
